A study of Mus musculus with 8 samples.

Results

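The axon guidance genes were the semaphorins, plexins, neuropilins, ephrins, Eph receptors, Slits, Robos and netrins. Members were chosen by gene symbol alone: Sema, Plxna, Plxnb, Plxnc, Plxnd, Epha, Ephb, Efna, Efnb, Slit or Robo followed by a digit, together with Nrp1, Nrp2, Ntn1, Ntn4 and Ntng1. In the table the letters nc had been replaced by GFP in 121 gene symbols, so that 62 members were found with symbols as printed. Once symbols were restored from the Ensembl identifiers, Plxnc1 was added and 63 of the 22274 genes were members, 34 of them ligands and 29 receptors.

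RNA was sequenced from primary mouse cardiac fibroblasts, which lay down the collagen of the heart, and every culture had been treated with TGF-b (TGF-β), the cytokine that drives fibroblasts towards the contractile, matrix-secreting myofibroblast. Of the 8 libraries, 4 were labelled GFP and 4 were labelled OEIRF7, the second group being the one in which the transcription factor IRF7 was to be overexpressed. By the design, cells of both groups had also received a virus, so all libraries shared the virus and TGF-b and none was untreated. The control is named GFP in the labels and an empty vector in the methods. The design text names an adeno-associated virus while the methods of the study name an adenovirus, and the labels do not give the strain or age of the mice or say whether the 4 libraries of a group came from separate cultures, so p-values measure the spread between libraries only. Primary cultures hold more than 1 cell type, and in bulk RNA fewer cells of a type and less RNA per cell cannot be told apart.

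The targeted gene was examined first. Counts of mouse Irf7 were 2861, 3680, 2272 and 3291 in the libraries labelled GFP and 385, 421, 380 and 404 in those labelled OEIRF7. Mouse Irf7 was thus lower in every library labelled OEIRF7, with 118 ± 24.0 against 15.2 ± 0.822 CPM (counts scaled to library size; mean ± SD, n = 4 each) and a log2 fold change of -2.96 (SE 0.12, edgeR adjusted p = 7.7e-11). The study's reagent list names an adenovirus with the human gene under the ubiquitous CMV promoter and an adeno-associated virus with mouse Irf7 under the periostin promoter, which is active in activated fibroblasts. The study describes an IRF7 adenovirus for the sequenced fibroblasts and the adeno-associated virus for injection into mice. The only IRF7 adenovirus in that list carries the human gene, and in that case mouse Irf7 cannot show whether the labels are right. The design text, however, names an adeno-associated virus for these libraries. Were that the one with mouse Irf7, the counts would run opposite to the labels. The sources thus differ on the virus, and which was used was not tested. Each direction below is therefore that of the libraries labelled OEIRF7 relative to the libraries labelled GFP. Library totals ran from 24454801 to 28658826 counts. Fibroblast markers summed to 5843 to 6040.3 FPKM (a read density scaled by gene length and library size) in the GFP libraries and 5468 to 5858 FPKM in the OEIRF7 libraries. Of 12 tested, Pdgfra and Vim were higher and 7 were lower, with log2 fold changes of -0.38 for Postn (adjusted p = 2.8e-07), -0.53 for Col3a1 (adjusted p = 6.5e-07), -0.16 for Col1a1 (adjusted p = 0.00052) and -1.33 for Tcf21 (adjusted p = 2.0e-08). Of 10 cardiomyocyte markers only Tnnt2 reached a mean of 1 FPKM, and it was lower. Markers of macrophages and leukocytes summed to 219.8 to 261 FPKM in the GFP libraries and 274 to 312 FPKM in the OEIRF7 libraries, with 6 of 10 tested higher and none lower. Most of that sum was Lyz2, at 152 ± 12.1 FPKM in the GFP libraries and 180.4 ± 9.16 FPKM in the OEIRF7 libraries. Not called were Ptprc (log2 fold change -0.08), Csf1r (0.06), C1qa (0.14) and C1qb (-0.32). Those of Schwann cells and neurons summed to 127 to 164 FPKM and 52.7 to 71.9 FPKM, with 3 of 6 tested lower (Map2, Tubb3 and Ngfr) and none higher. Endothelial markers summed to 369 to 399 FPKM and 378 to 409.5 FPKM (4 of 10 tested higher, 1 lower), mural markers to 275 to 296 FPKM and 249.5 to 275 FPKM (3 of 7 tested higher, 3 lower) and epicardial markers to 50.0 to 54.8 FPKM and 49.9 to 55.6 FPKM (3 of 7 tested higher, 2 lower). For scale, 29.0% of all genes tested were higher and 29.9% lower at an adjusted p under 0.05. The part of these marker shifts in the guidance results was not tested.

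Guidance cues were first described as signals that steer growing axons, and the same ligands and receptors act in vessels, heart development, immune cells and migrating fibroblasts. Semaphorins signal through plexins, with neuropilins as co-receptors for the secreted class 3 proteins; ephrins and Eph receptors are both bound to membranes and signal into both of the touching cells; Slits are secreted ligands of Robo receptors; netrins bind the receptors Dcc, neogenin and the Unc5 family. Most of these receptors act on the actin cytoskeleton, so that cells are repelled, attracted or made to change shape.

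Of the 63 guidance genes, 59 passed the filter on low counts and were tested. At an adjusted p under 0.05, 12 were higher, 23 were lower and 24 were not called in the OEIRF7 libraries. The share called was 59.3% against 58.9% of all 13533 genes tested. Over all genes, 29.0% were higher and 29.9% lower, and 53.8% had groups that did not overlap, as did 31 of the 59 guidance genes. Sema4b, Sema7a and Epha5 were higher by more than 2-fold, and Ephb2, Epha3 and Sema6a were lower by more than 2-fold; past that size were 8.56% of all genes tested, 4.66% higher and 3.89% lower. The median log2 fold change was -0.10 over the guidance genes, with a range of -1.73 to 1.23, and 0.00 over all genes; the median size of the change, without its sign, was 0.32 and 0.25. By role, there were 7 higher and 13 lower of 33 ligands tested and 5 higher and 10 lower of 26 receptors tested.

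**Figure D1:**
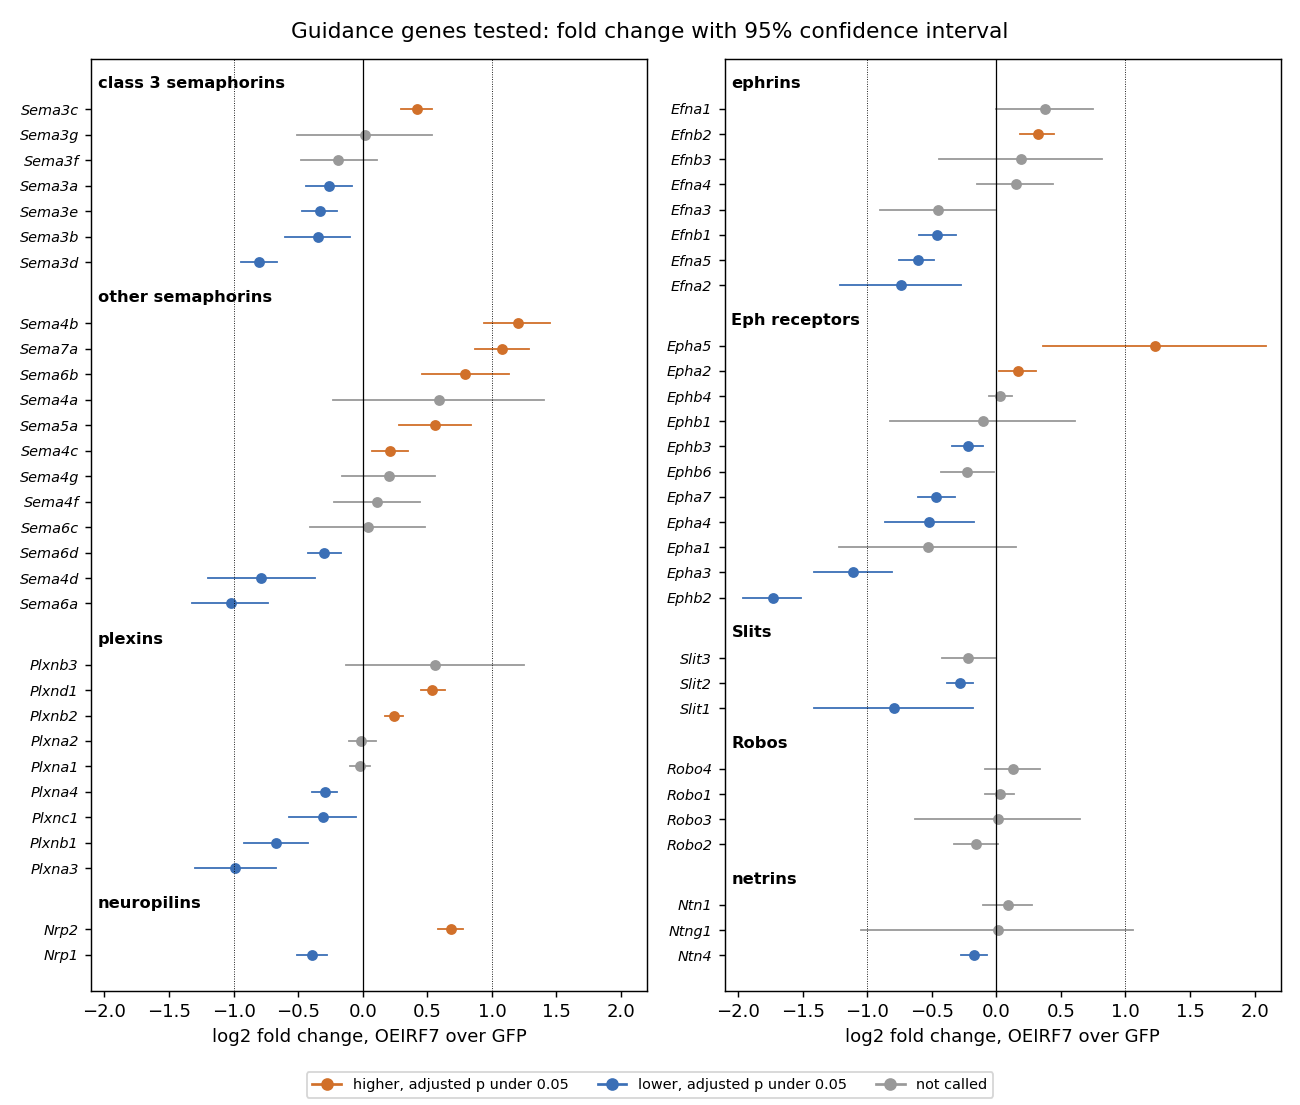
Log2 fold change of each guidance gene tested, OEIRF7 over GFP libraries (x axis, n = 4 libraries each), with points for the edgeR estimate and lines for the 95% confidence interval, grouped by role. Dotted lines mark 2-fold; 12 genes are higher (orange), 23 lower (blue) and 24 not called (grey), and all 4 Robos are grey.

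Levels were compared between genes only in FPKM, which is scaled by gene length. A mean of 10 FPKM or more over all libraries was reached by 12 members, of which 5 were higher, 5 lower and 2 not called. Another 27 members lay between 1 and 10 FPKM, with 5 higher, 10 lower and 12 not called. The remaining 24 were under 1 FPKM, with 2 higher, 8 lower, 10 not called and 4 not tested. Plxnb2 had the highest level in both groups. In the GFP libraries it was followed by Epha2 (44.7 ± 4.10 FPKM), Plxna1 (36.7 ± 1.61 FPKM) and Nrp2 (32.7 ± 2.32 FPKM), and in the OEIRF7 libraries by Nrp2 (53.8 ± 2.38 FPKM), Epha2 (51.1 ± 4.44 FPKM) and Plxna1 (37.8 ± 2.28 FPKM), so that Nrp2 went from the lowest to the highest of these 3 genes, although Nrp2 and Epha2 were within each other's spread in the OEIRF7 libraries. The 4 members not tested were Sema5b, Epha6, Epha8 and Epha10, each with a mean of at most 0.060 FPKM in either group.

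**Figure D2:**
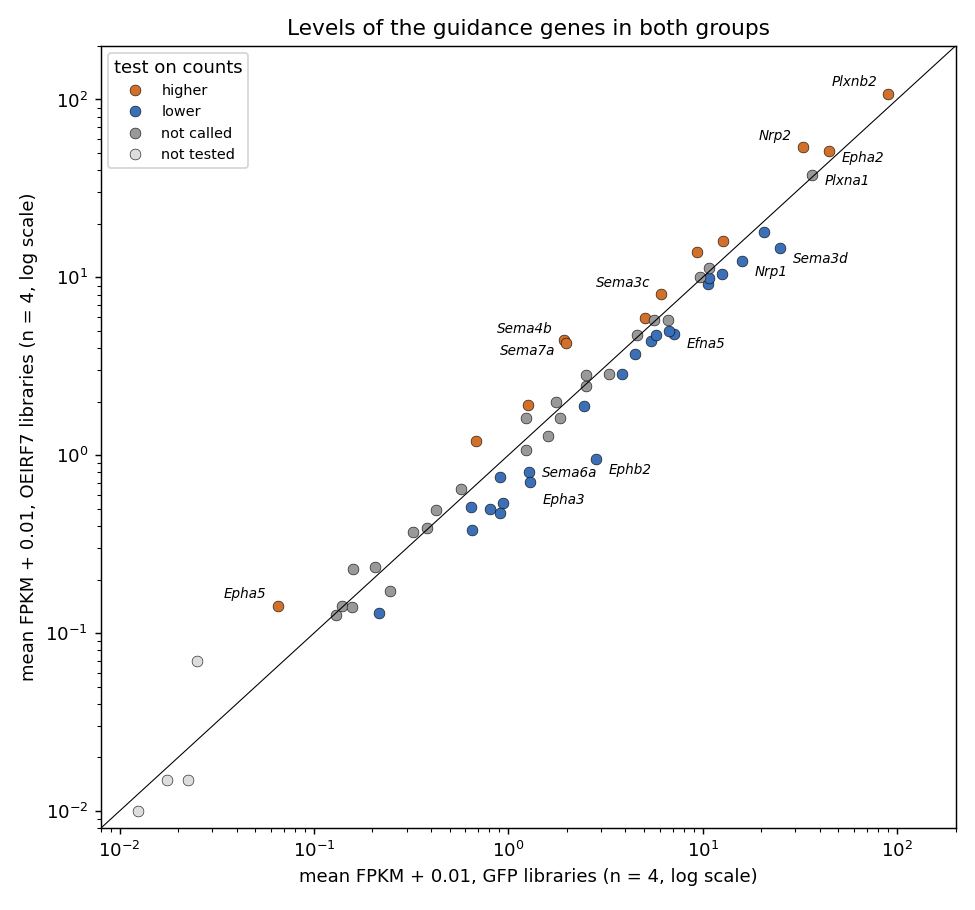
Mean level of each guidance gene in the GFP libraries (x axis) and the OEIRF7 libraries (y axis), in FPKM plus 0.01 on log scales, coloured by the test on counts. The line marks equal levels; Plxnb2 lies at the top right with 90.1 and 108 FPKM, and Ephb2 lies farthest below the line among the named genes, with 2.82 and 0.940 FPKM.

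Class 3 semaphorins are secreted and act through neuropilins and plexins. Of the 7 members, Sema3c was higher, Sema3d, Sema3e, Sema3a and Sema3b were lower, and Sema3f and Sema3g were not called. Sema3d (chr5:12383385-12588948, GRCm38), a cue for neural crest and endothelial cells in the developing heart, had the highest level of the class. Its CPM were 158, 169, 145 and 165 in the GFP libraries and 94.9, 100.3, 78.6 and 91.6 in the OEIRF7 libraries. Every OEIRF7 library lay below every GFP library, and the log2 fold change was -0.80 (SE 0.065, edgeR adjusted p = 8.4e-08). In FPKM the level was 25.0 ± 1.66 against 14.6 ± 1.54 (SD, n = 4). Sema3c, which is required for septation of the cardiac outflow tract, moved the other way, with 30.8 to 33.6 CPM in the GFP libraries and 40.5 to 47.1 CPM in the OEIRF7 libraries. Its log2 fold change was 0.42 (SE 0.056, edgeR adjusted p = 1.3e-05), and its level went from 6.10 ± 0.502 to 8.08 ± 0.517 FPKM.

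The make-up of the class shifted accordingly. Sema3d held 54.7% ± 1.76 of the summed class 3 FPKM in the GFP libraries and 42.2% ± 2.33 in the OEIRF7 libraries, while Sema3c held 13.4% ± 1.56 and 23.4% ± 1.64 (SD, n = 4). The ratio of Sema3d to Sema3c in FPKM was 4.13 ± 0.574 and 1.81 ± 0.205. The summed class 3 level was 43.2 to 47.2 FPKM and 32.2 to 37.3 FPKM, with no overlap. The remaining calls were smaller. Sema3e, the ligand of Plxnd1, had a log2 fold change of -0.33 (adjusted p = 0.00032) and no overlap between groups. Sema3a, the archetypal axon repellent, had -0.26 (adjusted p = 0.017) and Sema3b had -0.35 (adjusted p = 0.018), both with overlapping groups. Both calls were lost in some fits that left out a library, where the estimates stayed negative and adjusted p was just over the threshold. Without OEIRF7 replicate 1 Sema3a gave -0.22 (adjusted p = 0.055), and without GFP replicate 1 or 2 Sema3b gave -0.29 or -0.28 (adjusted p = 0.061 and 0.056). Sema3f gave -0.19 (95% CI -0.48 to 0.11) and Sema3g 0.02 (95% CI -0.51 to 0.54). Sema3d, Sema3a, Sema3e and Sema3c lie in that order on chromosome 5, starting at 12383385, 13125414, 14025276 and 17574281, so members of both directions lay within 1 stretch of that chromosome.

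Of the 13 semaphorins outside class 3, most of which are anchored in the membrane, 12 were tested; 5 were higher, 3 lower and 4 not called. Sema4b (chr7:80186841-80226527), a class 4 transmembrane semaphorin, had CPM of 7.39, 6.69, 8.18 and 7.09 in the GFP libraries and 17.3, 16.0, 20.8 and 13.4 in the OEIRF7 libraries. All OEIRF7 values exceeded all GFP values, with a log2 fold change of 1.20 (SE 0.12, edgeR adjusted p = 6.8e-07). Sema7a (chr9:57940112-57962865), the only semaphorin held in the membrane by a glycolipid anchor and a ligand of integrins and Plxnc1, had CPM of 6.20, 7.53, 6.48 and 6.06 against 12.9, 15.7, 12.6 and 14.3. The groups again stood apart, with a log2 fold change of 1.08 (SE 0.097, edgeR adjusted p = 2.4e-07). Levels of both genes were low to moderate and close to each other: Sema4b went from 1.92 ± 0.153 to 4.45 ± 0.806 FPKM and Sema7a from 1.98 ± 0.204 to 4.28 ± 0.432 FPKM.

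Sema6a, a transmembrane ligand of Plxna2 and Plxna4, had CPM of 6.49, 6.89, 6.28 and 5.45 in the GFP libraries and 3.37, 3.07, 2.36 and 3.57 in the OEIRF7 libraries. It was lower in every OEIRF7 library, with a log2 fold change of -1.02 (SE 0.14, edgeR adjusted p = 1.5e-05). It lay just past 2-fold on counts, was just inside without GFP replicate 2 (-0.98) or OEIRF7 replicate 3 (-0.91), and its FPKM, 1.27 ± 0.124 and 0.800 ± 0.183, gave a smaller difference. Sema4c (chr1:36548639-36558349), a ligand of Plxnb2, had the highest mean level of these semaphorins over all libraries (5.02 ± 0.295 and 5.89 ± 0.244 FPKM), with CPM of 20.5, 17.5, 17.8 and 18.5 against 22.7, 21.2, 21.4 and 20.8. The lowest OEIRF7 value was close to the highest GFP value, and the log2 fold change was 0.21 (SE 0.064, edgeR adjusted p = 0.010).

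Sema6b and Sema5a were also higher, with log2 fold changes of 0.79 (adjusted p = 0.00050) and 0.56 (adjusted p = 0.0018). Sema4d, which acts through Plxnb1, and Sema6d, which acts through Plxna1, were lower, with -0.79 (adjusted p = 0.0028) and -0.30 (adjusted p = 0.00047). For Sema4d the groups lay at 3.10 to 5.25 CPM and 1.61 to 2.72 CPM. Not called were Sema4a (0.59, 95% CI -0.23 to 1.40), Sema4g (0.20, 95% CI -0.16 to 0.56), Sema4f (0.11, 95% CI -0.22 to 0.44) and Sema6c (0.04, 95% CI -0.41 to 0.48). Sema4a and Sema4g were scarce, with at most 0.825 and 2.36 CPM in any library. Sema5b, which was not tested, had at most 0.112 CPM in the GFP libraries and 0.138 to 0.349 CPM in the OEIRF7 libraries; it was called higher where every gene with 1 count was kept. The summed level of this group went from 20.8 to 22.2 FPKM up to 25.2 to 27.1 FPKM.

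Plexins are the signalling receptors of semaphorins and carry a GTPase-activating domain on the inner side. Of 9 members, 2 were higher, 4 lower and 3 not called. Plxnb2 (chr15:89155549-89180788), a receptor for class 4 semaphorins and for angiogenin, held 57.5% ± 0.226 of the summed plexin FPKM in the GFP libraries and 60.8% ± 1.07 in the OEIRF7 libraries. Its CPM were 603, 567, 584 and 606 against 691, 678, 692 and 722. The groups did not overlap although the change was small, with a log2 fold change of 0.24 (SE 0.032, edgeR adjusted p = 1.3e-05). Plxna3 (chrX:74329066-74344689), a receptor of class 3 semaphorins that pairs with Nrp2, had CPM of 6.83, 5.69, 6.04 and 6.67 against 3.14, 3.0, 2.43 and 4.18. It was lower in every OEIRF7 library, with a log2 fold change of -0.99 (SE 0.15, edgeR adjusted p = 3.9e-05), just inside 2-fold; it was past 2-fold without GFP replicate 2 (-1.04), GFP replicate 3 (-1.01) or OEIRF7 replicate 4 (-1.14).

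Plxnd1, the receptor of Sema3e known from vessel patterning, was higher, at 62.1 to 66.5 CPM in the GFP libraries and 87.8 to 100.2 CPM in the OEIRF7 libraries (log2 fold change 0.54, SE 0.045, edgeR adjusted p = 9.4e-08). Its ligand Sema3e was lower in the same libraries. Plxna4 and Plxnb1 were lower, with log2 fold changes of -0.29 (adjusted p = 3.0e-05) and -0.67 (adjusted p = 0.00017). In FPKM Plxnb1 gave a smaller difference, 0.635 ± 0.0311 against 0.505 ± 0.168, with OEIRF7 libraries at 0.36, 0.59, 0.37 and 0.70 FPKM that overlapped the GFP range. Plxnc1 was lower with the adjusted p closest to the threshold among these calls (-0.31, SE 0.12, edgeR adjusted p = 0.038); its groups overlapped, and the call was lost in 5 of the 8 fits that left out a library, those without GFP replicate 1 or 2 or OEIRF7 replicate 1, 2 or 4 (log2 fold change -0.22 to -0.32, adjusted p = 0.064 to 0.14). Plxna1 (-0.02, 95% CI -0.10 to 0.06) and Plxna2 (-0.01, 95% CI -0.11 to 0.10) were not called. Plxnb3 was not called either (0.56, 95% CI -0.13 to 1.25), but passed the threshold without OEIRF7 replicate 3 (0.76, adjusted p = 0.044).

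The neuropilins are co-receptors of class 3 semaphorins and of vascular endothelial growth factors, and the pair moved in opposite directions. Nrp2 (chr1:62703285-62818695), which binds Sema3f and Sema3c, had CPM of 210.1, 189, 221 and 217 in the GFP libraries and 326, 346, 352 and 318 in the OEIRF7 libraries. Each OEIRF7 library was far above each GFP library, with a log2 fold change of 0.68 (SE 0.048, edgeR adjusted p = 2.0e-08). Nrp1 (chr8:128358604-128503363), the main co-receptor of Sema3a, had CPM of 57.1, 54.3, 57.5 and 61.9 against 42.3, 42.2, 42.5 and 48.8. It was lower without overlap, with OEIRF7 replicate 4 above the other three, and the log2 fold change was -0.39 (SE 0.055, edgeR adjusted p = 2.2e-05). Per length, Nrp2 went from 32.7 ± 2.32 to 53.8 ± 2.38 FPKM and Nrp1 from 15.9 ± 0.849 to 12.3 ± 0.904 FPKM. The ratio of Nrp2 to Nrp1 in FPKM was 2.09, 1.96, 2.18 and 2.0 in the GFP libraries and 4.41, 4.70, 4.72 and 3.73 in the OEIRF7 libraries. Both groups had more Nrp2 than Nrp1, and the ratio was 2.06 ± 0.0973 and 4.39 ± 0.461 (SD, n = 4).

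**Figure D3:**
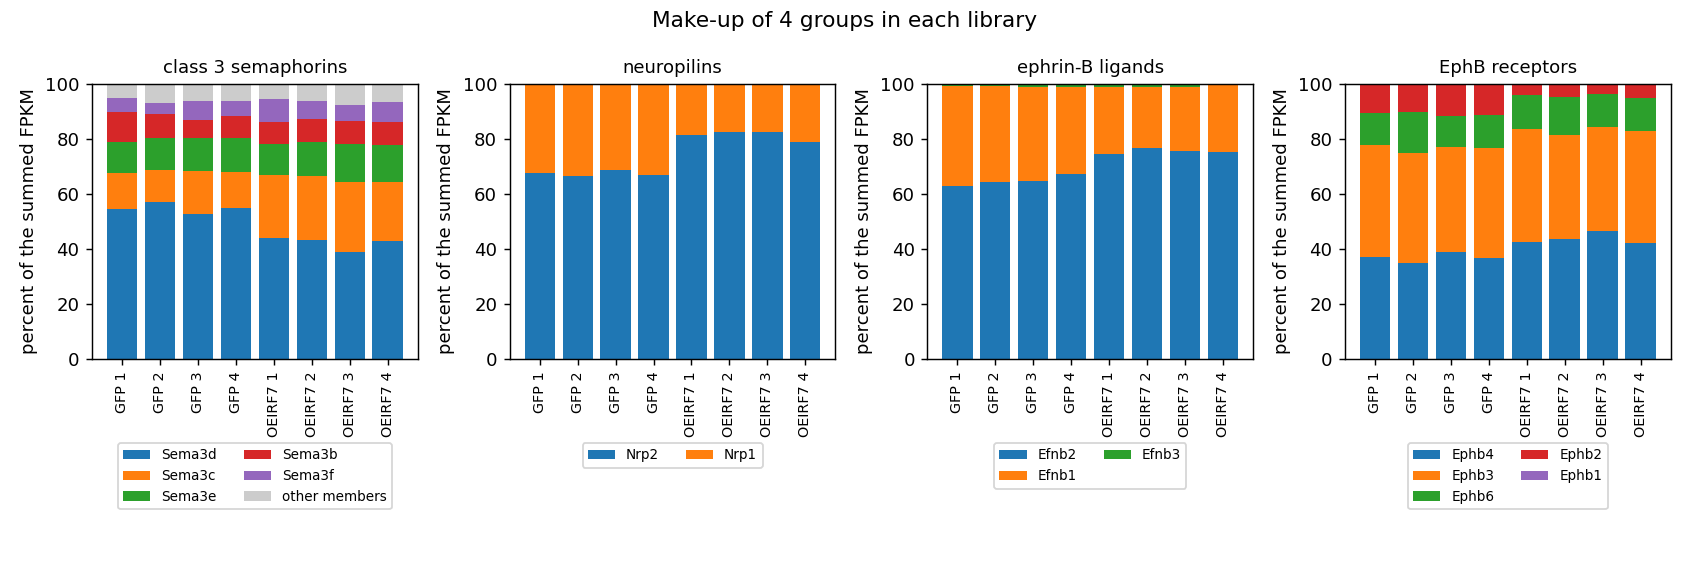
Share of each gene in the summed FPKM of its group (y axis, percent) in each of the 8 libraries, for class 3 semaphorins, neuropilins, ephrin-B ligands and EphB receptors. In the OEIRF7 libraries the share is lower for Sema3d (42.2% against 54.7%), higher for Nrp2 (81.3% against 67.3%), higher for Efnb2 (75.5% against 64.7%) and lower for Ephb2 (4.05% against 10.6%).

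Since IRF7 binds interferon-stimulated response elements, the RefSeq promoter windows of the members (GRCm38.p6, 250 bases before to 50 bases after each start site) were searched on both strands for this element, written as GAAA, any 2 bases and then GAAAC. Windows were given for 55 of the 63 members; Efnb3, Ntn1, Plxna1, Plxna4, Sema3b, Sema3f, Sema6a and Slit1 had none. The element was found in 2 members, Plxnc1 and Sema6b, or 3.64% of members with a window, against 0.944% of all 27025 genes with windows. The 250 bases before each of the start sites are shown because they hold the only such matches among the guidance genes, with the matched letters in capitals. The Plxnc1 sequence lies at chr10:94944846-94945095 and the Sema6b sequence at chr17:56140344-56140593, both read 5′ to 3′ from the minus strand.
Plxnc1: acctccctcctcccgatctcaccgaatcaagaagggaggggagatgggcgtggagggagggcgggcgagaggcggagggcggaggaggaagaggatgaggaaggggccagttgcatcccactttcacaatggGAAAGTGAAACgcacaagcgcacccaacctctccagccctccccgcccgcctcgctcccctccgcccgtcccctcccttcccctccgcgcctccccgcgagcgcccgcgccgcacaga
Sema6b: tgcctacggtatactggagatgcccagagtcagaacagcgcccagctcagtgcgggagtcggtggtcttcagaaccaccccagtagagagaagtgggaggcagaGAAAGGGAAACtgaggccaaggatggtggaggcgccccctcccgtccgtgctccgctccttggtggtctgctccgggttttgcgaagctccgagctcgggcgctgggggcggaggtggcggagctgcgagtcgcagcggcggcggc
The match began 118 bases before the Plxnc1 start site and 146 bases before that of Sema6b. In the OEIRF7 libraries Sema6b was higher and Plxnc1 lower, the Plxnc1 call being lost in 5 of the 8 fits that left out a library. Whether the element bears on either gene was not tested. The AP-1 letters TGANTCA were found in Sema4c, Sema4d and a second window of Sema6b, or 5.45% of members against 8.97% of all genes. The palindromic SMAD element GTCTAGAC was found in no member window and in 0.248% of all genes.

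Ephrins are membrane-bound ligands, held by a lipid anchor in the A class and by a transmembrane segment in the B class. Of 8 members, Efnb2 was higher, Efna5, Efnb1 and Efna2 were lower, and Efna1, Efna3, Efna4 and Efnb3 were not called. Efnb2 (chr8:8617434-8661242), an arterial marker and partner of Ephb4, had the highest level, with CPM of 56.2, 61.9, 58.4 and 68.0 in the GFP libraries and 74.2, 80.2, 68.6 and 81.3 in the OEIRF7 libraries. The groups nearly touched, at 68.0 and 68.6 CPM, and the log2 fold change was 0.32 (SE 0.063, edgeR adjusted p = 0.00055). Efnb1 fell from 21.4 to 23.0 CPM in the GFP libraries to 14.3 to 17.7 CPM in the OEIRF7 libraries (log2 fold change -0.46, SE 0.067, edgeR adjusted p = 3.6e-05). Efnb2 thus made up 64.7% ± 1.80 of ephrin-B FPKM in the GFP libraries and 75.5% ± 0.797 in the OEIRF7 libraries.

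Among the A ephrins, Efna2 (chr10:80179482-80190010) had the largest change, with CPM of 1.60, 1.76, 1.5 and 2.02 against 0.737, 1.14, 1.02 and 1.22. It was lower in all 4 OEIRF7 libraries, with a log2 fold change of -0.74 (SE 0.22, edgeR adjusted p = 0.0092), at a level under 1 FPKM. Efna5, the most abundant A ephrin, fell from 7.15 ± 0.634 to 4.82 ± 0.358 FPKM (log2 fold change -0.61, SE 0.063, edgeR adjusted p = 9.0e-07). Efna1 missed the threshold although its groups did not overlap (0.38, adjusted p = 0.077). Efna3 gave -0.45 (adjusted p = 0.075) with 1 OEIRF7 library, at 3.65 CPM, above all GFP libraries and the other three between 1.73 and 2.40 CPM. Without that library, OEIRF7 replicate 4, it gave -0.72 (adjusted p = 0.0026). Efna4 (0.15, 95% CI -0.15 to 0.44) and Efnb3 (0.19, 95% CI -0.44 to 0.82) were not called. The summed ephrin level was 31.7 to 33.9 FPKM in the GFP libraries and 29.6 to 34.2 FPKM in the OEIRF7 libraries.

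Eph receptors are receptor tyrosine kinases, of which A members mainly bind A ephrins and B members mainly bind B ephrins. Of 14 members, 11 were tested, with 2 higher, 5 lower and 4 not called. Ephb2 (chr4:136647539-136835988), a receptor for B ephrins, had the largest change of any guidance gene. Its CPM were 14.1, 15.7, 16.0 and 16.3 in the GFP libraries and 4.19, 5.17, 3.89 and 5.43 in the OEIRF7 libraries. The lowest GFP value was well over the highest OEIRF7 value, and the log2 fold change was -1.73 (SE 0.10, edgeR adjusted p = 3.1e-09). In FPKM it fell from 2.82 ± 0.142 to 0.940 ± 0.136, and its share of EphB FPKM from 10.6% ± 0.663 to 4.05% ± 0.503. Epha3 (chr16:63543534-63864175), a receptor that acts in the mesenchyme of the atrioventricular cushions, had CPM of 6.53, 6.09, 5.67 and 6.64 against 3.33, 2.45, 3.46 and 2.35. It too was lower in every OEIRF7 library, with a log2 fold change of -1.11 (SE 0.14, edgeR adjusted p = 8.1e-06). In FPKM it went from 1.28 ± 0.209 to 0.693 ± 0.122, a log2 ratio of -0.89 that was inside 2-fold.

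Epha2 (chr4:141301240-141329384), the most abundant Eph receptor and a regulator of cell adhesion and migration, had CPM of 177, 154, 189.5 and 187 in the GFP libraries and 190.4, 184, 225 and 194 in the OEIRF7 libraries. The groups overlapped, and the log2 fold change of 0.17 was just past the threshold (SE 0.068, edgeR adjusted p = 0.046). Leaving out a single library ended the call in 5 of 8 fits, those without GFP replicate 1 or 2 or OEIRF7 replicate 1, 3 or 4 (adjusted p = 0.053 to 0.15). Epha5 (chr5:84054761-84417382), known mainly from the nervous system, was scarce, with 9, 12, 9 and 3 counts against 25, 23, 23 and 9 counts. In CPM this was 0.336, 0.481, 0.365 and 0.114 against 0.969, 0.793, 0.903 and 0.365, so that OEIRF7 replicate 4 lay within the GFP range. The log2 fold change was 1.23 with a wide interval (95% CI 0.36 to 2.09, SE 0.40, edgeR adjusted p = 0.017). Without GFP replicate 4 it was 0.94 and without OEIRF7 replicate 1 it was 1.09, both with adjusted p = 0.055.

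Epha7, Epha4 and Ephb3 were lower, with log2 fold changes of -0.47 (adjusted p = 3.2e-05), -0.52 (adjusted p = 0.012) and -0.22 (adjusted p = 0.0037). None of their groups overlapped in CPM. In FPKM the groups of Epha7 (4.46 ± 0.357 and 3.70 ± 0.472) and Ephb3 (10.6 ± 0.489 and 9.13 ± 0.754) did overlap. Ephb4, the venous partner of Efnb2, was among the steadiest members, at 40.1 to 42.4 CPM and 40.4 to 43.3 CPM, with a log2 fold change of 0.03 (95% CI -0.06 to 0.12). Its ligand Efnb2 was higher in the same libraries. Ephb6, whose kinase domain is inactive, missed the threshold (-0.23, adjusted p = 0.053) and passed it without GFP replicate 3 (-0.28, adjusted p = 0.029) or OEIRF7 replicate 2 (-0.27, adjusted p = 0.045). Epha1 (-0.53, 95% CI -1.22 to 0.15) and Ephb1 (-0.10, 95% CI -0.82 to 0.61) were scarce and not called; exons of Epha1 overlap those of Zyx on the other strand, and the strand setting of the counting is not given in the sources used here. Epha6, Epha8 and Epha10 had no more than 0.0810 CPM in any library. The summed EphA level was 46.1 to 54.8 FPKM and 52.6 to 62.0 FPKM, and the summed EphB level 25.7 to 27.0 FPKM and 22.3 to 24.5 FPKM.

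**Figure D4:**
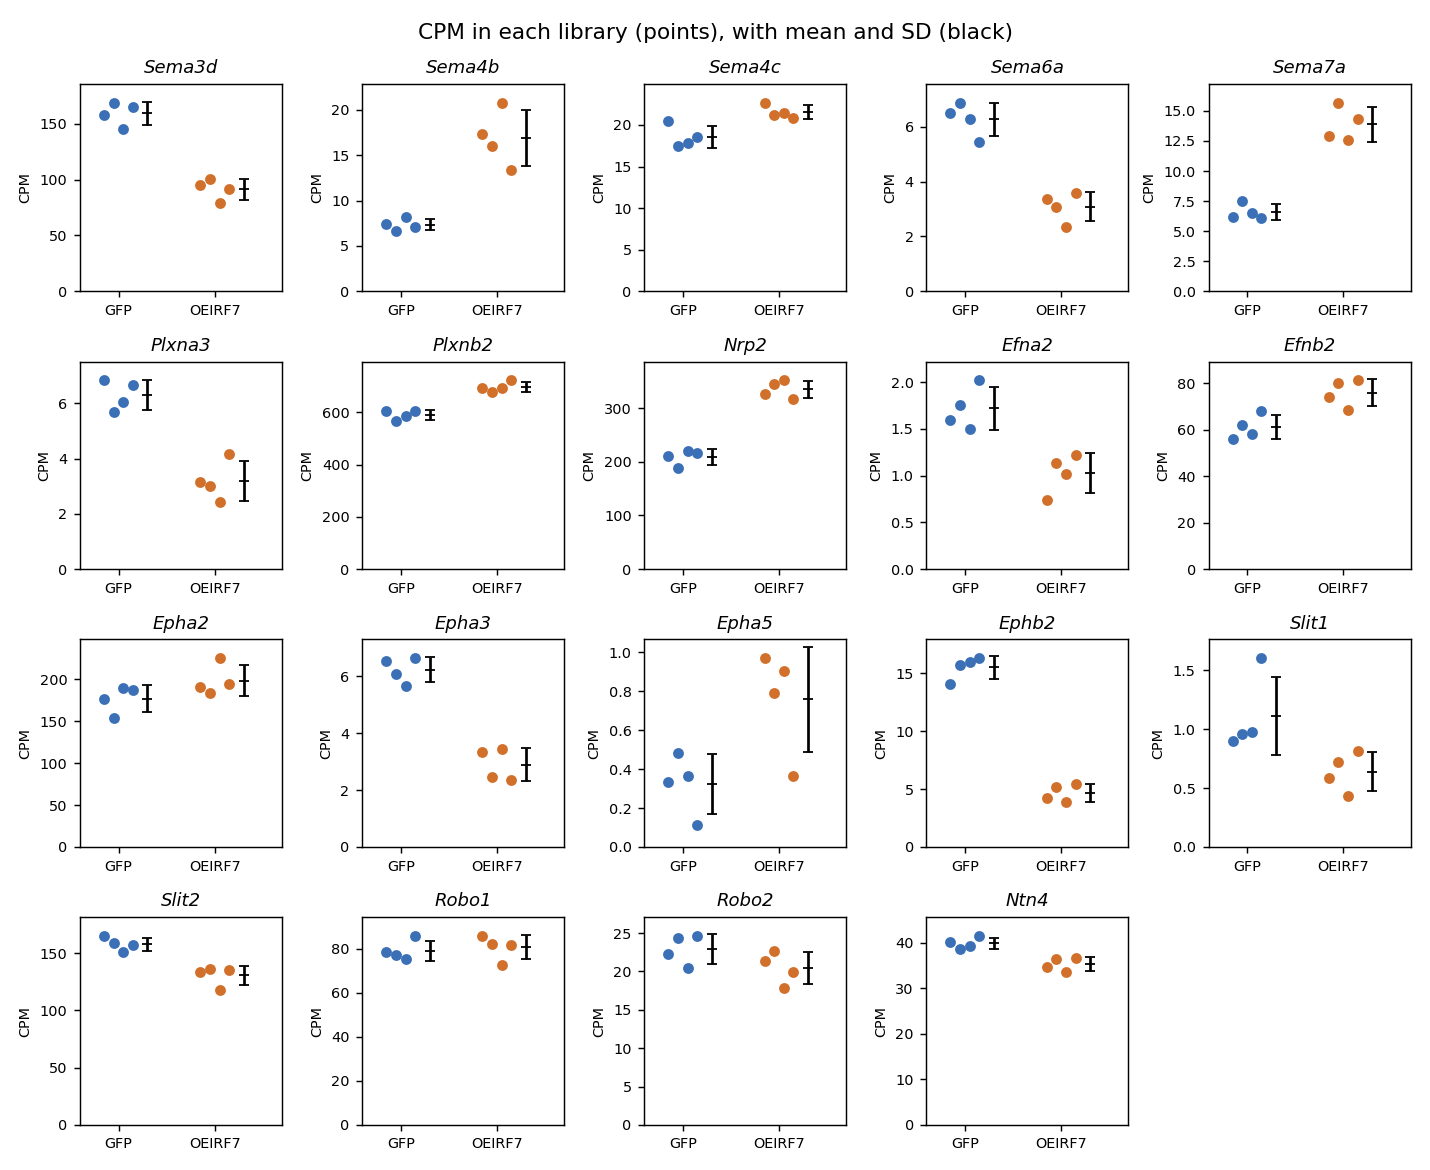
CPM (y axis, from 0) in each of the 4 libraries labelled GFP (blue) and the 4 labelled OEIRF7 (orange), with mean and SD in black, for members past 2-fold and for the most abundant and most changed member of each role group. Groups stand apart for Ephb2 (14.1 to 16.3 against 3.89 to 5.43), Nrp2 and Sema3d, and overlap for Epha2, Epha5, Robo1 and Robo2.

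Slits are secreted ligands of Robo receptors. Slit2 and Slit1 were lower and Slit3 was not called. Slit2 (chr5:47983138-48307733) held 90.9% ± 0.478 of the summed Slit FPKM in the GFP libraries and 91.1% ± 0.957 in the OEIRF7 libraries. Its CPM were 165, 159, 151 and 157 against 134, 136, 118 and 135. Every OEIRF7 library was lower, with OEIRF7 replicate 3 lowest, and the log2 fold change was -0.28 (SE 0.046, edgeR adjusted p = 0.00012). Slit1 (chr19:41600257-41743665), best known from the brain, had CPM of 0.896, 0.961, 0.972 and 1.60 against 0.581, 0.724, 0.432 and 0.811. The groups did not overlap, but GFP replicate 4 was far above the other three. The log2 fold change was -0.79 (SE 0.29, edgeR adjusted p = 0.028), and the call was lost without GFP replicate 4 (-0.56, adjusted p = 0.12), OEIRF7 replicate 1 (-0.75, adjusted p = 0.068) or OEIRF7 replicate 3 (-0.65, adjusted p = 0.085). Slit3 gave -0.22 (95% CI -0.42 to -0.01, adjusted p = 0.063), and passed the threshold without GFP replicate 4 (-0.26, adjusted p = 0.049) or OEIRF7 replicate 1 (-0.31, adjusted p = 0.0090).

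Without a replicate block, none of the 4 Robos was called by edgeR with all 8 libraries and none had an unadjusted p under 0.05; DESeq2 called none of them either. Robo1 (chr16:72308306-73046095), the main Slit2 receptor by level in these libraries, had CPM of 78.4, 77.0, 75.6 and 85.8 in the GFP libraries and 85.7, 82.4, 72.9 and 81.8 in the OEIRF7 libraries. The groups overlapped over most of their range, with a log2 fold change of 0.03 (95% CI -0.09 to 0.14, adjusted p = 0.68). Robo2 (chr16:73891839-74411825) had CPM of 22.3, 24.4, 20.4 and 24.6 against 21.3, 22.7, 17.9 and 19.9. It overlapped as well, with -0.16 (95% CI -0.33 to 0.01, adjusted p = 0.095), but was called lower without GFP replicate 3 (-0.21, adjusted p = 0.036) or OEIRF7 replicate 2 (-0.22, adjusted p = 0.038). Robo4, the endothelial Robo, gave 0.13 (95% CI -0.09 to 0.34) and Robo3 0.01 (95% CI -0.63 to 0.65). The summed Robo level was 19.3 ± 1.12 and 19.2 ± 1.55 FPKM, while the summed Slit level was 22.6 ± 0.504 and 19.6 ± 1.20 FPKM. Whether Slits and Robos differed in their change was not tested.

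Netrins are laminin-related cues, and of 3 members 1 was lower and 2 were not called. Ntn4 (chr10:93640681-93747207), a netrin of basement membranes, was the most abundant, with CPM of 40.2, 38.7, 39.3 and 41.5 in the GFP libraries and 34.7, 36.5, 33.6 and 36.8 in the OEIRF7 libraries. It was slightly lower in every OEIRF7 library, with a log2 fold change of -0.17 (SE 0.047, edgeR adjusted p = 0.0052). Ntn1, the classical netrin, gave 0.09 (95% CI -0.10 to 0.28, adjusted p = 0.41), with 23.2 to 28.3 CPM and 21.8 to 30.7 CPM, and was called higher without OEIRF7 replicate 3 (0.18, adjusted p = 0.048). Ntng1, a lipid-anchored netrin-G, gave 0.01 (95% CI -1.05 to 1.06) at no more than 0.550 CPM.

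The receptors of netrins lay outside the members and were read from a list of 34 other receptors and ligands of these pathways. Of these, 28 were tested, with 9 higher and 13 lower, and 78.6% were called against 58.9% of all genes. The list was chosen with earlier results of these data known, so this contrast is not a test of the pathway. Unc5b, a repulsive netrin receptor that also acts in vessels, had CPM of 689.7, 672, 642 and 662 in the GFP libraries and 341, 325, 299 and 363 in the OEIRF7 libraries. It was lower in every OEIRF7 library, falling from 113 ± 3.46 to 57.8 ± 4.91 FPKM (log2 fold change -1.0, SE 0.048, edgeR adjusted p = 3.3e-10). Neogenin (Neo1), which binds netrins and repulsive guidance molecules, had CPM of 231, 241, 217 and 234 against 143, 139, 147 and 155. It was likewise lower throughout, from 47.6 ± 2.64 to 29.2 ± 0.725 FPKM (log2 fold change -0.66, SE 0.042, edgeR adjusted p = 5.1e-09). Unc5a was lower (-0.40, adjusted p = 0.0031) and Unc5c higher (0.59, adjusted p = 0.00020), both at levels of 1.20 to 2.09 FPKM. Dcc and Unc5d were too scarce to be tested, with at most 9 and 12 counts in any library. The receptors Unc5b and Neo1 thus had larger changes than any of the 3 netrins, a difference that was not tested.

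**Figure D5:**
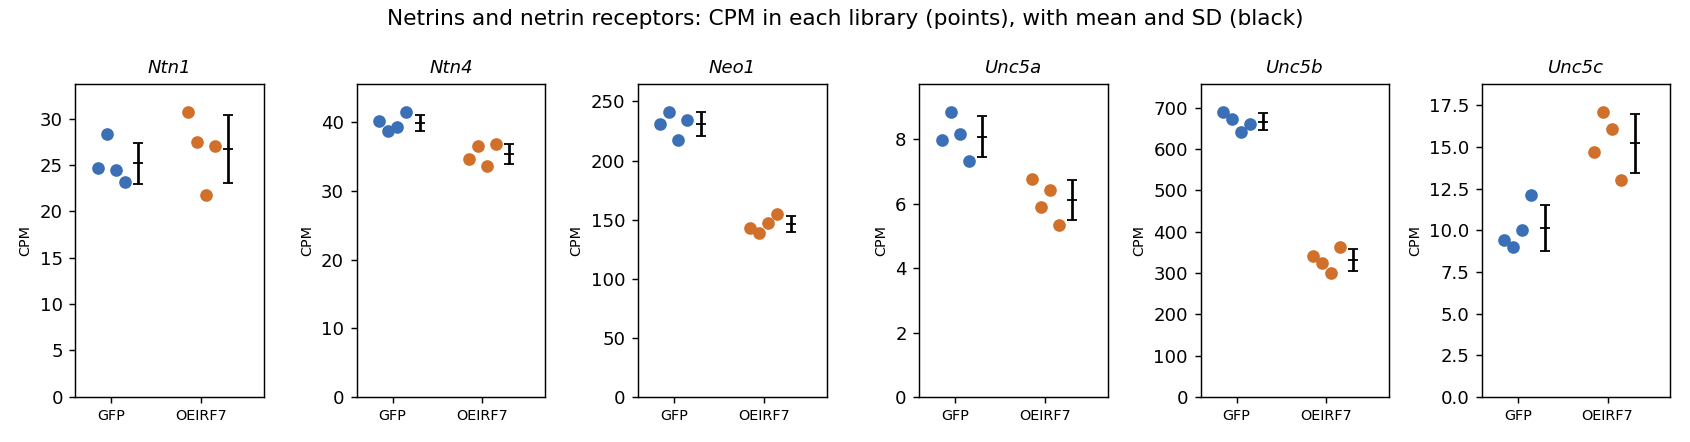
CPM (y axis, from 0) in each library labelled GFP (blue) or OEIRF7 (orange), n = 4 each, with mean and SD in black, for 2 netrins and 4 netrin receptors. Unc5b (642 to 689.7 against 299 to 363) and Neo1 (217 to 241 against 139 to 155) stand apart, while the groups of Ntn1 overlap.

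Elsewhere in that list, 4 genes were higher and 3 lower by more than 2-fold. Higher were Nrcam, a cell adhesion molecule that joins neuropilin receptor complexes (log2 fold change 1.61, adjusted p = 1.4e-07), Draxin, a secreted ligand of Dcc (1.36, adjusted p = 0.015), Flrt2, a ligand of Unc5 receptors (1.13, adjusted p = 0.00015), and Lrrc4c, the ligand of Ntng1 (1.0, adjusted p = 2.0e-07). Draxin rested on 1 to 9 counts in the GFP libraries and 11 to 16 in the OEIRF7 libraries. Flrt2 was the most abundant of these, at 30.6 ± 8.04 and 68.0 ± 21.9 FPKM, with OEIRF7 replicate 3 far above the rest at 606 CPM. Lower by more than 2-fold were Cntn2, a neural adhesion molecule (-1.66, adjusted p = 6.8e-06), Itga1, the α chain of a collagen-binding integrin that Sema7a also engages (-1.28, adjusted p = 9.5e-09), and Unc5b.

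Of 68 intracellular transducers of these receptors, 64 were tested. Of those, 28 were higher and 24 lower, or 81.2% called against 58.9% of all genes. The median size of the change was 0.30 against 0.25 over all genes. This list too was chosen with earlier results of these data known and was not matched to all genes by level. The 2 shares are therefore not a test of the pathway. Past 2-fold were Ngef (ephexin), an exchange factor that couples to Eph receptors (log2 fold change 1.77, SE 0.13, edgeR adjusted p = 4.0e-08), Ablim3, an actin-binding protein (1.19, adjusted p = 3.9e-06), and Sipa1l1, a GTPase-activating protein (-1.0, adjusted p = 1.8e-10). Ngef went from 1.72 to 2.19 CPM in the GFP libraries to 5.93 to 7.38 CPM in the OEIRF7 libraries, so that this scarce transducer of Eph receptors was higher in each. Median log2 fold changes were 0.11 for the transducers, -0.09 for the other receptors and ligands and -0.10 for the guidance genes themselves.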

How the data were processed

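RNA-seq was performed on 8 libraries of primary mouse cardiac fibroblasts, 4 labelled GFP and 4 labelled OEIRF7, grouped by their titles. According to the methods, the authors trimmed reads with Trimmomatic, aligned them to GRCm38 with HISAT2 and deposited whole-number read counts per gene from HTSeq-count, together with FPKM values from Cufflinks that the authors normalized by gene length and library; tool versions and the strand setting are not given in the sources used here. The extraction and library kits in the labels differ from those in the methods. The table also holds the authors' group means and the authors' own comparison (log2 fold changes, p-values and false discovery rates), which were not used. The counts sum to between 24454801 and 28658826 per library, and intervals given here are those of the fitted fold changes.

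Counts were tested in R 4.3.3 with edgeR 4.0.16 (filterByExpr, TMM scaling, quasi-likelihood test, no covariate), with Benjamini-Hochberg adjustment over all 13533 genes tested; a gene was called at an adjusted p under 0.05. CPM were computed with TMM-scaled library sizes. No 2 libraries agreed within sampling noise (chi-square per degree of freedom 2.905 to 9.938 within groups). On simulated counts with 200 genes changed 2-fold among 13466, edgeR recovered 95.5% with 4.02% false calls. The simulation gave every gene the same variability and changed few genes, each by exactly 2-fold. These rates therefore do not cover the smaller changes called here. Alternatives were DESeq2 1.42.0, other scalings and filters, a replicate block, leaving out each library, and limma 3.58.1 on log2(FPKM + 1) or log2(FPKM + 0.1). Gene coordinates are from GENCODE M21 (GRCm38) and promoters from RefSeq (GRCm38.p6). The members and all lists were chosen with earlier results of these data known. Values per library were given for members called past 2-fold and for the most abundant and the most changed member of each role group, and also for Nrp1, Unc5b and Neo1; of the other lists, members past 2-fold and the genes Dcc, Neo1 and Unc5 were named.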

Additional observations from a re-analysis of the deposited data

Results flagged for a closer look

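For the 20 guidance genes given per library, Irf7, Unc5b and Neo1, 46 groups of 4 libraries were examined for a library far from the others of its group, and 3 were found; chance alone gives about 1 in 20. GFP replicate 4 stood apart for Slit1, where its gap to the next library was 0.892 of the group's whole range (1.60 CPM against 0.896 to 0.972 CPM). OEIRF7 replicate 3 stood apart for Slit2, with a gap of 0.895 of the range (118 CPM against 134 to 136 CPM). OEIRF7 replicate 4 stood apart for Nrp1, with a gap of 0.955 of the range (48.8 CPM against 42.2 to 42.5 CPM); without it the log2 fold change of Nrp1 was -0.45 (edgeR adjusted p = 5.2e-06).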

How the results depend on the processing

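DESeq2 called the same 12 guidance genes higher and the same 23 lower. Leaving out 1 library gave 10 to 13 higher and 21 to 25 lower calls, with 2 to 3 higher and 2 to 4 lower past 2-fold. On log2(FPKM + 1), limma put 0 members past 2-fold in either direction, with 12 higher and 19 lower calls. Epha7, Plxnb1, Plxnc1 and Slit1 lost their lower calls there and Efna1 was called higher. Epha5 was not tested in either limma fit, since its mean of 0.0938 FPKM fell short of the filter at 0.1 FPKM. It therefore could not count among the higher calls or those past 2-fold in these fits. On log2(FPKM + 0.1) limma put 2 higher and 1 lower past 2-fold. The pseudocount shrinks the change of scarce genes by construction. Without scaling, Sema6a was no longer past 2-fold and Plxnc1 was not called (adjusted p = 0.054). With the replicate number as a block, 12 members were higher and 26 lower, Efna3, Ephb6 and Robo2 being gained, and over all genes 8211 were called against 7969; deviations of same-numbered libraries correlated by 0.0792, 0.0953, 0.138 and 0.104, each library best with its own number, which hints at pairing. Since only 2 of the 4 exceeded 0.1 and no label ties the numbers together, the block was kept as an alternative.

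Signs changed for uncalled members near 0. Log2 fold changes under limma with pseudocounts of 1 and 0.1 were -0.02 and -0.08 for Ntng1, -0.09 and -0.12 for Sema4f, 0.04 and 0.05 for Plxna1 and 0.03 and 0.03 for Plxna2. Without scaling Plxna1 was 0.01 and Plxna2 0.02, and with every gene of at least 1 count kept Robo3 was -0.00. Over the fits leaving out 1 library, the values ran from -0.00 to 0.07 for Robo1, -0.31 to 0.10 for Ephb1, -0.18 to 0.16 for Robo3, -0.17 to 0.25 for Sema3g, -0.36 to 0.20 for Ntng1, -0.12 to 0.13 for Sema6c, -0.04 to -0.00 for Plxna1 and -0.04 to 0.03 for Plxna2. The cause was not tested. Of the 24 members under 1 FPKM, 4 were not tested and 10 were called; among the others, the interval of Ntng1 spans 2-fold in either direction. FPKM and counts gave log2 fold changes differing by over 0.3 for 4 of 59 members.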
